A study of Drosophila melanogaster with 9 samples.

Results

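The 8 genes described here encode enzymes of the methionine cycle and its side branches, or, in AhcyL1, a divergent relative of Ahcy. Measured in the fly heart, they are Gnmt, Sardh, Sam-S, Ahcy, AhcyL1, Cbs, Eip55E and MsrA. They were chosen by symbol for their known roles, not by their values, and all 8 were found among the 16700 gene rows of the expression table and passed the filter on low values, which left 8365 rows for testing. Eip55E stands in the table under its current symbol Cth and was matched through that synonym. Hearts were dissected from mated w1118 females, a white-eyed laboratory strain that all groups share, and total RNA depleted of ribosomal RNA was sequenced. Each diet had 3 libraries, named A, B and C, of 15 hearts each by the labels, although the study's methods give a larger number. HSD (high sugar diet) was the normal food with 30% sucrose added and was fed for 10 days, HFD (high fat diet) had 30% coconut oil added and was fed for the last 3 days after 7 days on normal food, and ND (normal diet) was the unsupplemented food for 10 days. Because HSD and HFD also differ in how long they were fed, diet and duration cannot be told apart when they are compared with each other. No gene was manipulated in any library.

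Methionine is turned into S-adenosylmethionine (SAM), which gives its methyl group to DNA, RNA, proteins, lipids and small molecules and leaves S-adenosylhomocysteine (SAH). SAH is split to homocysteine, which is either methylated back to methionine or passed into transsulfuration to make cysteine. In animals, glycine N-methyltransferase is known as an overflow valve of this cycle: it spends SAM on glycine and makes sarcosine, which sarcosine dehydrogenase returns to glycine in mitochondria.

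Gnmt showed the largest difference of the 8 genes against ND. The primers that the study used to measure Gnmt by RT-qPCR are shown because they are the designed sequences that belong to this gene. No base is set in capitals, and their positions within the gene were not determined here.
Gnmt forward: ctagacgtggcctgtggaac
Gnmt reverse: gcatctacggacacaacttcg

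Between 59941761 and 90069216 reads per library lay on genes, as rebuilt from the table. The 3 libraries of a diet correlated with each other at r = 0.98 to 0.994 across genes. Values are RPKM (reads scaled to gene length and library size) that were rescaled between libraries by factors from 0.94 to 1.086. A gene was called when limma's two-sided test gave a Benjamini-Hochberg adjusted p under 0.05 over all 8365 rows and the fold change was at least 1.5. Without rescaling, the median log2FC of all genes moved by 0.04 for HSD versus ND and by 0.106 for HFD versus ND. The labels do not say how the libraries of a diet were set apart, but the study's methods describe separate collections on different days. The comparisons of HSD and of HFD with ND use the same 3 ND libraries. As hearts were sequenced in bulk, fewer cells of a type and less RNA per cell cannot be told apart in any value below.

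On HSD, all 8 genes had a log2FC below 0 against ND, and 4 of them, Gnmt, Sardh, Ahcy and MsrA, were called lower. Of all tested genes, 2.56% were called lower and 49.5% had a log2FC below 0 in that comparison. The median log2FC of the 8 genes was -0.78, against 0.00 over all tested genes. In 7 of the 8, every HSD library lay below every ND library, a separation that 14.3% of tested genes showed. On HFD, Gnmt and MsrA were called lower than on ND, where 1.45% of tested genes were. Their median log2FC on HFD was -0.37, against 0.02 over all tested genes, and 7 of the 8 were below 0, as were 46% of tested genes. In 4 genes (Gnmt, Ahcy, Eip55E and MsrA) every HFD library lay below every ND library, which was so for 12% of tested genes. Gnmt and MsrA were called lower on both diets, as were 0.586% of tested genes, and the same 4 genes had all HSD and all HFD libraries below all ND libraries, as had 3.87% of tested genes.

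**Figure D1:**
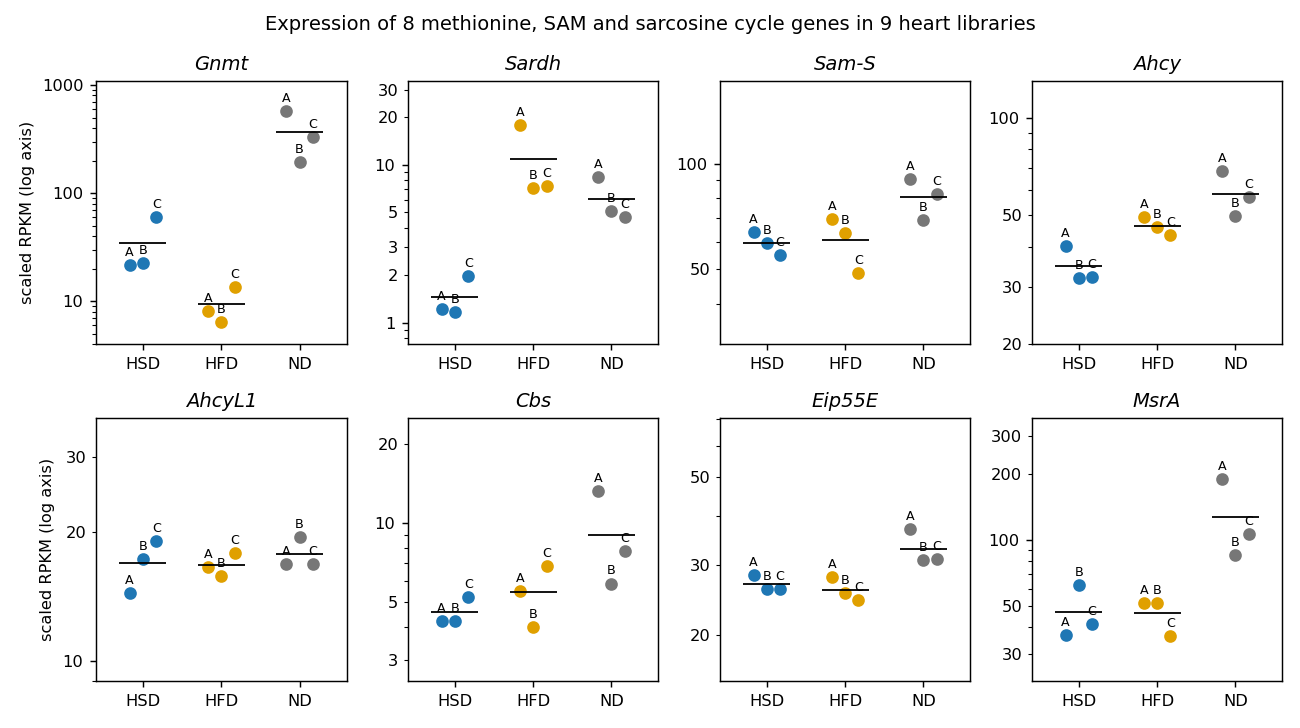
Scaled RPKM (vertical axis, logarithmic, with its own range in each panel) of each gene in the 3 HSD, 3 HFD and 3 ND libraries, where points are libraries with their letters and bars are means. Gnmt lies between 6.38 and 59.5 RPKM in the HSD and HFD libraries and between 192 and 573 RPKM in the ND libraries, whereas AhcyL1 stays between 14.4 and 19.5 RPKM in all 9.

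The cycle begins with Sam-S, the SAM synthetase that joins methionine to ATP. The gene (FBgn0005278) lies on chromosome 2L of BDGP6 from 106903 to 114432. It was expressed at 64.1, 59.6 and 55.0 RPKM on HSD, 69.5, 63.7 and 49.0 RPKM on HFD, and 90.6, 69.2 and 82.1 RPKM on ND (libraries A, B and C). All HSD libraries were below all ND libraries, while HFD library A was just above ND library B. The log2FC was -0.43 on HSD (95% interval -0.75 to -0.11, adjusted p = 0.12 from limma) and -0.41 on HFD (-0.74 to -0.09, adjusted p = 0.16 from limma). Sam-S was therefore not called on either diet, and its intervals allow values between almost no difference and a decrease of 0.75 on the log2 scale.

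Gnmt (FBgn0038074), which methylates glycine to sarcosine at the expense of SAM, lies on chromosome 3R from 12674608 to 12676084, with 4 exon blocks that add up to 990 bases. Expression was 21.4, 22.5 and 59.5 RPKM on HSD, 8.01, 6.38 and 13.5 RPKM on HFD, and 573, 192 and 331 RPKM on ND. The 3 diets formed 3 bands that did not overlap, with HFD the lowest and ND the highest. Behind these values were 1694 to 4180 reads per HSD library, 404 to 1042 per HFD library and 14577 to 41195 per ND library, so counting error was small beside the spread between libraries. On average, Gnmt was 10.7-fold lower on HSD than on ND (log2FC -3.42, standard error 0.49, adjusted p = 0.0062 from limma) and 35.5-fold lower on HFD than on ND (log2FC -5.15, standard error 0.49, adjusted p = 0.0018 from limma). Both calls survived the removal of any single library (9 fits). The exact permutation test gave p = 0.1 for each diet, two-sided, and 3 libraries against 3 cannot go lower. A gene on the other strand, CG43630, covers 7.6% of the exon bases of Gnmt, and the sources used here do not say whether reads were counted by strand.

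The change of place in the transcriptome was wide. By its mean on HSD, Gnmt stood above 80.4% of tested genes, on HFD above 49.0%, and on ND above 97.2%. Among the 8 genes it ranked the fourth on HSD, the seventh on HFD and the highest on ND. The libraries of a diet also spread widely, with a coefficient of variation of 63.0% on HSD, 40.2% on HFD and 52.8% on ND.

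Sardh (FBgn0034276, chromosome 2R, 17753555 to 17756422) encodes sarcosine dehydrogenase, which oxidises sarcosine to glycine. Its values were 1.23, 1.17 and 1.97 RPKM on HSD, 17.9, 7.19 and 7.39 RPKM on HFD, and 8.37, 5.09 and 4.69 RPKM on ND. The HSD libraries, with 245 to 384 reads each, lay below the 6 others, whereas HFD and ND overlapped and HFD library A stood above the rest. Sardh fell 3.3-fold on HSD relative to ND (log2FC -1.72, 95% interval -2.51 to -0.94, adjusted p = 0.024 from limma), on the log2(RPKM + 0.5) scale, which understates the change of a gene this low. That call was lost when HSD library A, HSD library B, ND library A or ND library C was left out, with log2FC between -1.9 and -1.49 over the 9 such fits and an adjusted p from limma of up to 0.099. It was also lost with no filter on low values (adjusted p = 0.055 from limma). On HFD the log2FC against ND was 0.71 (95% interval -0.08 to 1.49, adjusted p = 0.32 from limma), which leaves room for no difference as well as for an increase.

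Gnmt and Sardh work on the same metabolite in opposite directions, and their levels moved apart between the diets. The ratio of Gnmt to Sardh in RPKM was 17.3, 19.2 and 30.2 on HSD, 0.448, 0.886 and 1.83 on HFD, and 68.4, 37.7 and 70.6 on ND. The ranges of the 3 diets did not overlap, and on HFD 2 of the 3 libraries held more Sardh than Gnmt per length. These ratios are compared as RPKM, and the gene lengths used for RPKM are not given in the sources used here. Exon lengths of 990 bases for Gnmt and 2750 bases for Sardh gave whole reads for both genes in all 9 libraries.

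Ahcy (FBgn0014455, chromosome X, 15450261 to 15453167) encodes adenosylhomocysteinase, which splits SAH into homocysteine and adenosine. It was measured at 40.2, 32.0 and 32.3 RPKM on HSD, 49.3, 46.1 and 43.4 RPKM on HFD, and 68.3, 49.6 and 57.0 RPKM on ND. The diets formed 3 bands again, in another order than for Gnmt: HSD was the lowest, HFD lay between, and HFD library A came within a small step of ND library B. Ahcy was 1.66-fold lower on HSD than on ND (log2FC -0.73, 95% interval -1.02 to -0.44, adjusted p = 0.016 from limma). Leaving out HSD library B, HSD library C or ND library C raised the adjusted p from limma to at most 0.076 and ended the call, while the log2FC stayed between -0.84 and -0.61. On HFD the log2FC was -0.32 (95% interval -0.61 to -0.03), and limma did not call it (adjusted p = 0.23).

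AhcyL1 (FBgn0035371, chromosome 3L, 2768466 to 2772325), a divergent relative of Ahcy, behaved otherwise. Levels were 14.4, 17.3 and 19.1 RPKM on HSD, 16.6, 15.8 and 17.9 RPKM on HFD, and 16.9, 19.5 and 16.9 RPKM on ND. All 3 diets overlapped. Its log2FC was -0.08 on both diets, with 95% intervals of -0.32 to 0.17 on HSD (adjusted p = 0.78 from limma) and -0.32 to 0.16 on HFD (adjusted p = 0.74 from limma), so a 1.5-fold change in either direction lies outside both intervals. The sign on HFD turned (0.03) without rescaling between libraries, and that on HSD turned (up to 0.04) when a library was left out. The ratio of Ahcy to AhcyL1 was 1.69 to 2.8 on HSD, 2.42 to 2.97 on HFD and 2.54 to 4.05 on ND.

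Transsulfuration, the route from homocysteine to cysteine, is represented by Cbs and Eip55E. Cbs (FBgn0031148, chromosome X, 21045138 to 21049096), the cystathionine beta-synthase of the first step, had 4.21, 4.22 and 5.22 RPKM on HSD, 5.5, 3.99 and 6.86 RPKM on HFD, and 13.2, 5.86 and 7.8 RPKM on ND. HSD lay below ND in every library, HFD library C was above ND library B, and ND library A was far above the other ND libraries. The log2FC was -0.84 on HSD (95% interval -1.45 to -0.23, adjusted p = 0.11 from limma) and -0.62 on HFD (-1.24 to -0.01, adjusted p = 0.26 from limma), so Cbs was not called. Without ND library B the HSD difference was called (log2FC -1.09), and it was called in none of the other 8 fits that left out a library.

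Eip55E (FBgn0000566, chromosome 2R, 18627918 to 18629395) is the cystathionine gamma-lyase of the second step, first named as an ecdysone-induced protein. It stood at 28.3, 26.2 and 26.1 RPKM on HSD, 28.1, 25.5 and 24.6 RPKM on HFD, and 37.1, 30.9 and 31.2 RPKM on ND. Every HSD and HFD library was below every ND library, and HSD and HFD were nearly level. The difference was small, and limma gave -0.29 on HSD (95% interval -0.49 to -0.09, adjusted p = 0.086) and -0.34 on HFD (-0.53 to -0.14, adjusted p = 0.08) for the log2FC, and Eip55E was not called on either diet.

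MsrA (FBgn0000565, chromosome 3L, 15511052 to 15513202) encodes a methionine sulfoxide reductase, which returns oxidised methionine in proteins and free methionine to its reduced form. It gave 36.7, 62.4 and 41.2 RPKM on HSD, 51.7, 51.7 and 36.3 RPKM on HFD, and 191, 85.7 and 107 RPKM on ND. HSD and HFD overlapped, with HSD library B above every HFD library, and both lay wholly below ND, and ND library A was the highest of the 9. MsrA was 2.64-fold lower on HSD (log2FC -1.40, standard error 0.3, adjusted p = 0.031 from limma) and 2.61-fold lower on HFD (log2FC -1.38, standard error 0.3, adjusted p = 0.049 from limma) than on ND.

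Both MsrA calls lay near the threshold. On HSD the call was kept in 4 of the 9 fits that left out a library and was lost without HSD library A, B or C, ND library A or ND library C, where the log2FC was between -1.62 and -1.07, as well as with no filter on low values (adjusted p = 0.065 from limma) and with only the 6 libraries of HSD and ND (adjusted p = 0.055). On HFD it was kept in 2 of the 9, without HSD library A or ND library B, and was lost when any other single library was left out, with log2FC between -1.47 and -1.05 where it was lost. With the library letter as a block the HFD call was lost too (adjusted p = 0.065 from limma), as it was under 5 further settings of scaling, pseudocount, filter, variance prior and libraries fitted (adjusted p = 0.051 to 0.094). The highest adjusted p from limma over all alternatives was 0.096 on HSD and 0.14 on HFD, and the direction was lower in 3 of 3 libraries on each diet under the exact permutation test (p = 0.1, two-sided, the smallest possible).

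**Figure D2:**
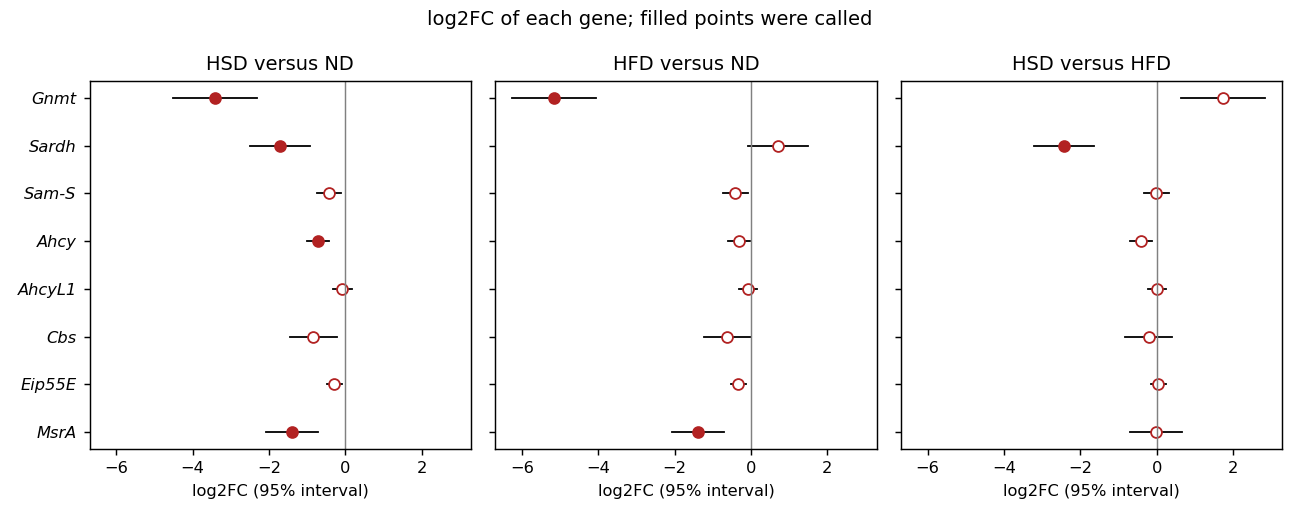
log2FC (horizontal axis) of each gene in the comparisons of HSD with ND, of HFD with ND and of HSD with HFD, where points are limma estimates, lines are 95% intervals and filled points were called. Gnmt is farthest from 0 against ND (-3.42 on HSD and -5.15 on HFD), and Sardh is the only gene called between HSD and HFD (-2.43).

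HSD and HFD were also compared with each other. Only Sardh was called, 5.39-fold lower on HSD than on HFD (log2FC -2.43, 95% interval -3.21 to -1.65, adjusted p = 0.0041 from limma), and all 9 fits that left out a library kept the call. In this comparison 2.61% of tested genes were called lower on HSD. Gnmt was higher on HSD than on HFD in every library, with a log2FC of 1.73 (95% interval 0.63 to 2.84, adjusted p = 0.058 from limma), which missed the threshold. It passed when HFD library C (adjusted p = 0.048 from limma) or ND library A (adjusted p = 0.049 from limma) was left out. Ahcy was lower on HSD than on HFD in every library, with a log2FC of -0.41 (95% interval -0.7 to -0.12, adjusted p = 0.084 from limma). A separation of libraries towards lower values on HSD was seen in 14% of tested genes and towards higher values in 15.8%. For Sam-S, AhcyL1, Eip55E and MsrA the log2FC lay between -0.02 and 0.04, with intervals that reached 0.34 or less below 0 and 0.31 or less above 0, except for MsrA, where the interval ran from -0.7 to 0.67. For Cbs the log2FC was -0.21 (95% interval -0.83 to 0.4).

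Ordered by mean RPKM on HSD, the genes ran Sam-S (59.6 ± 4.58), MsrA (46.8 ± 13.7), Ahcy (34.9 ± 4.66), Gnmt (34.4 ± 21.7), Eip55E (26.9 ± 1.27), AhcyL1 (16.9 ± 2.39), Cbs (4.55 ± 0.582) and Sardh (1.46 ± 0.444) (SD, n = 3 each). Among the first 5, each pair of neighbours overlapped, whereas AhcyL1, Cbs and Sardh were each below all libraries of the gene before. On HFD the order was Sam-S (60.7 ± 10.6), MsrA (46.6 ± 8.9), Ahcy (46.3 ± 2.93), Eip55E (26.1 ± 1.79), AhcyL1 (16.8 ± 1.09), Sardh (10.8 ± 6.12), Gnmt (9.29 ± 3.73) and Cbs (5.45 ± 1.44). Only the steps from Ahcy to Eip55E and from Eip55E to AhcyL1 were free of overlap there. On ND, Gnmt led (365 ± 193), followed by MsrA (128 ± 55.9), Sam-S (80.7 ± 10.7), Ahcy (58.3 ± 9.42), Eip55E (33.1 ± 3.51), AhcyL1 (17.8 ± 1.52), Cbs (8.97 ± 3.82) and Sardh (6.05 ± 2.02). MsrA overlapped Sam-S and Cbs overlapped Sardh, and the other neighbours on ND did not overlap. By these means, Sam-S was the highest of the 8 genes on both HSD and HFD, and Gnmt was the highest on ND. In single HSD libraries the order could differ. MsrA (62.4 RPKM) was above Sam-S (59.6 RPKM) in library B, and Gnmt (59.5 RPKM) was above Sam-S (55.0 RPKM) in library C.

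Across the 9 libraries, which share the diet groups and the scaling, log2 values of some of these genes ran together. Pearson's r was 0.91 between Sam-S and Eip55E, 0.89 between Eip55E and MsrA, 0.84 between Gnmt and Eip55E and 0.82 between Gnmt and MsrA. For Gnmt and Sardh r was -0.05, and AhcyL1 had r between -0.21 and 0.35 with every other gene. With each diet centred on its own mean, the values were others: r was 0.89 between Ahcy and Eip55E, 0.87 between Gnmt and Cbs, 0.78 between Sam-S and Eip55E and 0.6 between Eip55E and MsrA, but 0.21 between Gnmt and Eip55E and 0.23 between Gnmt and MsrA. Centred in this way, r was 0.4 for Gnmt and Sardh, and AhcyL1 ran opposite to Ahcy (-0.8), Sam-S (-0.72) and Eip55E (-0.54). Among the ND libraries, 6 genes (Gnmt, Sam-S, Ahcy, Cbs, Eip55E and MsrA) had the order A, C, B from high to low, an order that 21.2% of tested genes shared.

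**Figure D3:**
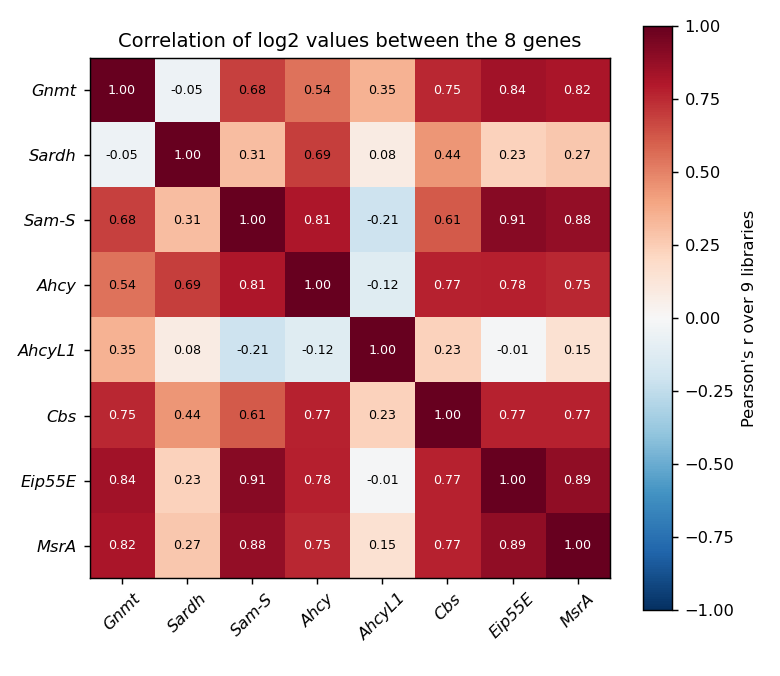
Pearson's r of log2 values between each pair of the 8 genes over the 9 libraries, with colour from -1 to 1 and the value in each cell. Sam-S, Eip55E and MsrA form the block of highest values (0.88 to 0.91), Gnmt and Sardh are at -0.05, and AhcyL1 is near 0 with most genes.

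For the 4 genes called in at least 1 comparison, the tested genes with the most similar profile over the 9 libraries were listed as a description. For Gnmt these were fit (r = 0.987), smp-30 (r = 0.972) and Cyp4d8 (r = 0.971). The gene fit encodes a secreted satiety factor known from fat body, and the paper reports that cardiomyocytes and pericardial cells express it too. For Sardh they were Cyp28d1 (r = 0.978), chif (r = 0.977) and asRNA:CR44108 (r = 0.965). For Ahcy they were CG31313 (r = 0.981), UK114 (r = 0.978) and pyd3 (r = 0.972), and for MsrA they were Glt (r = 0.975), CG3513 (r = 0.97) and Obp73a (r = 0.961). Each is among the highest of 8365 values of r and carries no test.

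Genes next to the cycle were followed in 5 lists. In the list of SAM cycle neighbours, 1 of 5 tested genes was called lower on HSD, where 2.56% of tested genes were. None was called lower on HFD, where 1.45% were. The list medians were -0.07 on HSD, against 0.00 over all tested genes, and -0.26 on HFD, against 0.02. The called gene was CG10621, with 45.5, 51.0 and 64.1 RPKM on HSD, 149, 153 and 128 RPKM on HFD, and 220, 198 and 211 RPKM on ND. The diets did not overlap, with HSD lowest and HFD between. CG10621 fell by 1.97 on the log2 scale on HSD relative to ND (standard error 0.13, adjusted p = 0.00018 from limma), had a log2FC of -0.55 on HFD (adjusted p = 0.057 from limma), and differed between HSD and HFD (log2FC -1.42, adjusted p = 0.00065 from limma). It was called against ND on HSD in all 9 fits that left out a library.

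Glycine is both the acceptor of the methyl group that Gnmt transfers and the product of Sardh. Of 6 tested genes in the list of glycine handling, 2 were called lower on HSD, where 2.56% of tested genes were, and none on HFD, where 1.45% were, with medians of -0.71 on HSD, against 0.00 over all tested genes, and 0.28 on HFD, against 0.02. All 6 had a log2FC below 0 on HSD, as had 49.5% of tested genes, and 2 of 6 did on HFD, as did 46%. Shmt, which interconverts serine and glycine with folate, had 79.8, 53.0 and 66.9 RPKM on HSD, 277, 222 and 187 RPKM on HFD, and 174, 149 and 159 RPKM on ND, and fell by 1.28 on the log2 scale on HSD relative to ND (standard error 0.17, adjusted p = 0.0051 from limma). No HSD library came near an ND or HFD library, and every HFD library was above every ND library, though that difference was not called (log2FC 0.49, adjusted p = 0.17 from limma).

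CG3999 was the other called gene of the list, at 9.7, 5.37 and 7.33 RPKM on HSD, 24.5, 18.8 and 18.5 RPKM on HFD, and 19.8, 14.8 and 14.8 RPKM on ND (log2FC -1.11 for HSD versus ND, adjusted p = 0.017 from limma). Its row lies in a stretch of the table whose labels are shifted, and with labels taken as listed the sign turned (0.12). The call was lost without HSD library B, HSD library C, ND library A or ND library C (log2FC -1.18 to -0.91). Between HSD and HFD, 4 of the 6 genes were called lower on HSD, where 2.61% of tested genes were: Shmt (log2FC -1.77, adjusted p = 0.001 from limma), CG3999 (-1.43, adjusted p = 0.0042), Tdh, a threonine dehydrogenase (-1.33, adjusted p = 0.023), and CG6415 (-0.91, adjusted p = 0.03). Tdh lost this call without HSD library A, B or C or HFD library A or C, and CG6415 without HSD library B or C or HFD library A or B. With no filter on low values the adjusted p from limma was 0.052 for Tdh and 0.059 for CG6415, and with only the 6 libraries of HSD and HFD it was 0.056 for CG6415, so these calls were lost as well. Against ND, CG6415 was not called on HSD (log2FC -0.67, adjusted p = 0.1 from limma), except with the library letter as a block (adjusted p = 0.04) and without HSD library A.

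The remaining lists held no call against ND, which the shares over all genes also give in lists this small. Between HSD and HFD, the list of methionine salvage and polyamine synthesis held 1 call among 10 tested genes, where 2.61% of tested genes were called lower. None of the 10 tested genes of methionine salvage and polyamine synthesis was called against ND on either diet. Of all tested genes, 3.3% were called on HSD and 1.91% on HFD. Odc2, an ornithine decarboxylase, had 7.62, 4.27 and 3.86 RPKM on HSD, 15.3, 17.1 and 10.6 RPKM on HFD, and 10.6, 8.57 and 9.8 RPKM on ND, and was called lower on HSD than on HFD (log2FC -1.40, adjusted p = 0.0095 from limma). Its difference between HSD and ND (log2FC -0.87, adjusted p = 0.067 from limma) was called without HSD library A, without HFD library C and with the library letter as a block (adjusted p = 0.044 from limma), and under no other alternative. Of 4 tested genes of cysteine and glutathione synthesis, none was called against ND, where the same 3.3% and 1.91% of tested genes were. Between HSD and HFD, 1 of these 4 genes was called in each direction, where 4.35% of tested genes were called in either. CG5618 was called higher on HSD (log2FC 1.12, adjusted p = 0.026 from limma), as were 1.75% of tested genes. The gene shop, a sulfite oxidase, was called lower on HSD (log2FC -0.60, adjusted p = 0.026 from limma), as were 2.61%. CG5618 lost the call without HSD library B or C or HFD library A or B, and shop lost it without HSD library A, B or C or HFD library A or B. Both lost it with no filter on low values (adjusted p from limma 0.055 for CG5618 and 0.056 for shop), and shop with a pseudocount of 1, under which its log2FC was -0.57. The other genes of that list, Gss1, Gss2 and CG5493, did not pass the filter on low values.

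Methyltransferases are the main users of SAM. Gnmt is one of them, is described above and is not in the list that follows. In a list of 14 enzymes that methylate RNA, histones, other proteins, coenzyme Q or juvenile hormone, 13 were tested and none was called in any of the 3 comparisons. Of all tested genes, 3.3% were called for HSD versus ND, 1.91% for HFD versus ND and 4.35% for HSD versus HFD. At these shares, no call among 13 genes does not set the list apart. Their summed expression was 102 to 104 RPKM on HSD, 105 to 112 RPKM on HFD and 103 to 106 RPKM on ND. By the larger of the 2 differences from ND, the first genes of the list were Hen1, which methylates small RNAs, with a log2FC of 0.22 on HSD and 0.30 on HFD, and Su(var)3-9, a histone methyltransferase, with 0.18 on HSD and 0.14 on HFD. On HFD alone, the histone methyltransferase G9a (0.17) stood above Su(var)3-9.

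**Figure D4:**
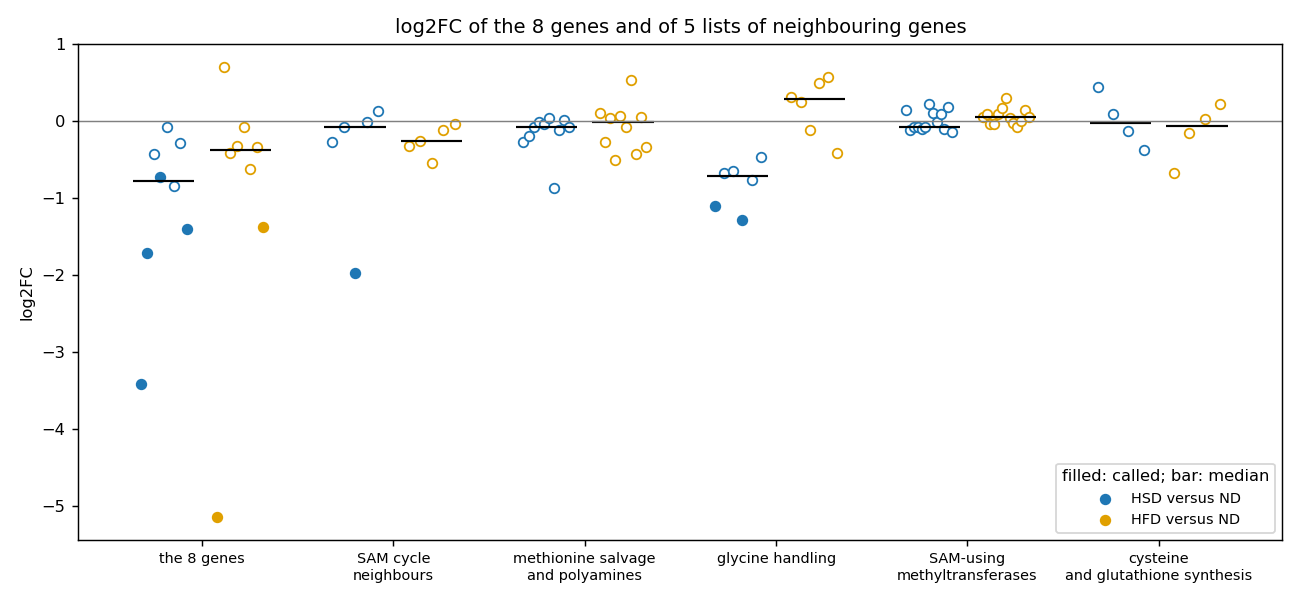
log2FC against ND (vertical axis) of the 8 genes and of 5 lists of neighbouring genes, for HSD in blue and HFD in yellow, where circles are genes, filled circles were called and bars are medians. On HSD the 8 genes (median -0.78) and glycine handling (median -0.71) lie lowest. The methyltransferases of the list, which leaves out Gnmt, stay within 0.30 of 0 on both diets.

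Dissected fly hearts carry other cells, and lists of their markers were read beside these results. None of the 9 tested heart muscle markers was called in any comparison. Of all tested genes, 3.3% were called for HSD versus ND, 1.91% for HFD versus ND and 4.35% for HSD versus HFD. The summed expression of the heart muscle markers overlapped between diets (1392 to 1956 RPKM on HSD, 1405 to 2014 RPKM on HFD and 1474 to 1819 RPKM on ND). Among 7 tested of 8 fat body markers, Lsp2 and fit were called lower on both diets, as were 0.586% of tested genes. On HSD, 6 of the 7 had a log2FC below 0 (median -0.40, against 0.00 over all tested genes), as had 49.5% of tested genes. On HFD all 7 did (median -0.25, against 0.02), as did 46%. The paper reports fit in heart cells too, so fit does not mark fat body alone. The summed list was 1653 to 1814 RPKM on HSD, 1294 to 1534 RPKM on HFD and 2435 to 3397 RPKM on ND. Without Lsp2 and fit, which were left out after their values were seen, the sum was 1369 to 1666 RPKM on HSD, 1181 to 1443 RPKM on HFD and 1628 to 1779 RPKM on ND. The lipoprotein gene apolpp, an abundant fat body marker, was at 865, 680 and 719 RPKM on HSD, 482, 406 and 602 RPKM on HFD, and 742, 791 and 809 RPKM on ND. Its log2FC was -0.06 on HSD (adjusted p = 0.9 from limma) and -0.67 on HFD (adjusted p = 0.052 from limma), which passed without HSD library A or HFD library C and with a mean of at least 2 RPKM required. Its difference between HSD and HFD was called (log2FC 0.61, adjusted p = 0.037 from limma), but of the 9 fits that left out a library only that without HFD library C kept the call.

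Values of fit, the nearest gene to Gnmt in profile, were 139, 181 and 242 RPKM on HSD, 110, 82.6 and 160 RPKM on HFD, and 685, 481 and 494 RPKM on ND. The fit call on HSD (log2FC -1.58, adjusted p = 0.014 from limma) was lost without HSD library B, ND library A or ND library C, and that on HFD (-2.26, adjusted p = 0.005) was kept whichever library was left out. Lsp2, a storage protein of fat body, was at 9.77, 22.1 and 122 RPKM on HSD, 3.76, 8.66 and 19.8 RPKM on HFD, and 947, 327 and 347 RPKM on ND. Its log2FC was -3.96 on HSD (adjusted p = 0.035 from limma) and -5.68 on HFD (adjusted p = 0.016), and the HSD call was lost when HSD library A or B, HFD library B or ND library A, B or C was left out, and the HFD call when HFD library A or B or ND library A or C was. From high to low, Gnmt, fit and Lsp2 had the order C, B, A on HSD, as 21.7% of tested genes had. On ND they had the order A, C, B, as 21.2% had. On HFD, Gnmt and fit had the order C, A, B (16.2% of tested genes) and Lsp2 had C, B, A (17.4%). The other tested fat body markers, apolpp, Apoltp, FASN1, AkhR and Ilp6, were all highest in HSD library A, where Gnmt was lowest. On ND, Apoltp, FASN1 and AkhR had the order of Gnmt, and apolpp and Ilp6 did not. On HFD, of these markers only apolpp had it. Since fit was named for its r with Gnmt, its shared order adds nothing to that r. The summed markers of other cells were 379 to 545 RPKM on HSD, 422 to 513 RPKM on HFD and 528 to 591 RPKM on ND for hemocytes, and 176 to 297 RPKM on HSD, 249 to 345 RPKM on HFD and 281 to 382 RPKM on ND for pericardial nephrocytes. Oenocyte markers summed to 54930 to 66811 RPKM on HSD, 47422 to 59123 RPKM on HFD and 37501 to 52896 RPKM on ND. Most of each sum was the gene Cyp4g1, with means of 53900, 48015 and 39009 RPKM on HSD, HFD and ND. On HFD, FASN3 (log2FC -0.94) and eloF (-0.29) were below 0 against ND, and Cyp4g1, FASN2 and Cpr were above 0. Eggshell markers summed to 1.61 to 34.3 RPKM on HSD, 2.18 to 5.51 RPKM on HFD and 30.0 to 787 RPKM on ND. Of these 4 lists, the eggshell gene Cp15, lower on HFD (log2FC -6.10, adjusted p = 0.025 from limma), was the only gene called against ND, and that call was lost when HFD library A, B or C or ND library B or C was left out, with no filter on low values, and in limma-voom on rebuilt reads (adjusted p = 0.28). FASN3 (log2FC 1.12, adjusted p = 0.043 from limma) and eloF (0.84, adjusted p = 0.023), oenocyte genes of lipid synthesis, were called higher on HSD than on HFD, and both lost the call without HSD library B or C or HFD library A or B, and FASN3 also without HSD library A or ND library C. Fbp1, a fat body marker of larvae, was near 0 in all libraries, and the eggshell marker Cp36 was at 0 in some HSD and HFD libraries. The part of these cells in the differences of Gnmt, Sardh, Ahcy and MsrA was not tested.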

How the data were processed

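The deposited table holds RPKM for each gene and library. Per the labels and the study's methods, the authors trimmed reads, aligned them to dm3, moved gene identifiers to dm6 and counted with featureCounts 1.6.1. They tested counts with DESeq2 1.20.0 and edgeR 3.22.5 in R 3.5.1, which were not used here. How RPKM and its gene lengths were made, and whether counting used strand, is not given in the sources used here. Decimal commas, in 28.4% of cells, were read as points. In 9 stretches of the table, values belong to a gene listed 1 to 5 rows away and were realigned (16.6% of rows above 0); none of the 8 genes lies there. Whole reads were rebuilt for 95.3% of rows above 0 (tolerance 0.05 reads).

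RPKM was rescaled by the median of ratios and tested as log2(RPKM + 0.5) with limma 3.58.1 (R 4.3.3, trend in the variance prior), on rows with a mean of at least 0.5 RPKM, in 1 fit of all 9 libraries with 6 residual degrees of freedom. Fold changes on this scale understate those of low genes. The code of the test was checked on simulated data. Exact permutation tests compared 3 with 3 libraries. The 8 genes were named whatever their values. From each of the 5 pathway lists, genes called in at least 1 comparison were named, or otherwise the 2 of largest log2FC; marker genes were named where called or where a result turned on them. For each of the 8 called in a comparison, the 3 genes of highest r were named. Genes and lists were chosen with earlier results of these data known. Positions come from BDGP6 and not from the build that was aligned to. No sequence other than the primers was used. Alternatives covered scaling, pseudocount, filter, variance prior, libraries fitted, library letter as a block, labels as listed, the fold threshold, each library left out and limma-voom on rebuilt reads, the last chosen after seeing the data.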

Additional observations from a re-analysis of the deposited data

Results flagged for a closer look

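For 12 of the genes named above, a difference between the 2 rich diets was called in limma's contrast of HSD with HFD. Of all tested genes, 4.35% were called in it. Most genes of the lists were named because they were called, so the number 12 follows from that choice. Sardh, CG10621, Odc2, Shmt and CG3999 kept this call in all 9 fits that left out a library. It was kept in 5 of the 9 for CG6415, CG5618 and eloF, 4 for Tdh and shop, 3 for FASN3 and 1 for apolpp. The log2FC of HSD versus HFD was -2.43 for Sardh, -1.42 for CG10621, -1.40 for Odc2, -1.77 for Shmt, -1.43 for CG3999, -0.91 for CG6415, -1.33 for Tdh, 1.12 for CG5618, -0.60 for shop, 0.61 for apolpp, 1.12 for FASN3 and 0.84 for eloF. In Sardh, Odc2, Shmt, CG3999, CG6415, Tdh and shop, the log2FC against ND was below 0 on HSD and above 0 on HFD, and the reverse held for CG5618, FASN3 and eloF. In CG10621 and apolpp it was below 0 on both diets. Against ND, only Sardh, CG10621, Shmt and CG3999 were called, all lower on HSD, and none of the 12 was called on HFD. As the 12 were chosen for a difference between HSD and HFD, opposite signs against the same ND libraries follow in part from that choice.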

How the results depend on the processing

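Over 168 values for the 8 genes per comparison (21 alternatives each), 151 kept direction and side of the threshold for HSD versus ND, 154 for HFD versus ND and 153 for HSD versus HFD. Without a filter on low values, 2 of the 8 genes were called on HSD. On HFD, 1 of the 8 was called under quantile normalization, a pseudocount of 1, no filter, no trend in the variance prior and only 6 libraries, since MsrA crossed the threshold. With only 6 libraries, 3 were called on HSD, without MsrA. Leaving out a library gave 1 to 5 called genes on HSD, 1 to 2 on HFD and 1 to 2 between HSD and HFD. Among all genes, calls ranged then from 106 to 297 on HSD, from 44 to 164 on HFD and from 236 to 437 between HSD and HFD, beside 276, 160 and 364 with all libraries. With adjusted p alone, 559, 247 and 788 genes passed, and with no filter 81 passed on HFD. Without rescaling, the sign turned for AhcyL1 on HFD (0.03) and between HSD and HFD (-0.06), and for Eip55E between HSD and HFD (-0.02). With a library left out, log2FC spanned -0.17 to 0.04 for AhcyL1, -0.16 to 0.02 for apolpp and -0.13 to 0.40 for FASN3 on HSD, and, between HSD and HFD, -0.16 to 0.09 for Sam-S, -0.08 to 0.12 for AhcyL1 and -0.24 to 0.14 for MsrA. With labels as listed, CG3999 turned to 0.12 on HSD, -0.03 on HFD and 0.16 between HSD and HFD. The cause of these changes was not tested.

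Libraries of the same letter did not all deviate together (r from -0.25 to 0.267 over the 9 same-letter pairs), and the labels tie no letter to a day. With the letter as a replicate block, 4 of the 8 genes were called on HSD, 1 on HFD, where MsrA no longer passed, and 2 between HSD and HFD, where Gnmt then passed (log2FC 1.73, adjusted p = 0.033 from limma), and 282, 161 and 376 of all genes. limma-voom on rebuilt reads, chosen after seeing the data, called 4, 2 and 1 of the 8.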
